A study of Rattus norvegicus with 24 samples.

Results

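Collagen chain genes were followed across the livers of 24 rats on 4 diets. All array probes whose gene name starts with Col, a number, the letter a and a number were taken, which gave 55 probes with 38 names among 30367 probes with 26278 names. 1 of these names, Col4a3bp, is the older symbol of the ceramide transfer protein gene Cert1 and no collagen, which left 54 probes of 37 collagen chain genes. Every one of the 37 symbols was found in the RefSeq gene table (GRCr8). The 37 chains comprised 11 fibrillar chains, 7 chains of basement membrane collagens and 19 other chains.

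The livers came from male Wistar rats, aged 6 months at the start of feeding and 9 months at the end of its 12 weeks, with 1 array for each rat. All diets were purified and based on AIN76A, and starch and dextrin were adjusted so that total carbohydrate was equal. Each of 4 diets was fed to 6 rats. The control diet had adequate copper, 125 mg/kg, and 10% sucrose. The low copper diet had less than 0.3 mg/kg copper and 10% sucrose, the high sucrose diet had 125 mg/kg copper and 30% sucrose, and the combined diet had less than 0.3 mg/kg copper and 30% sucrose. RNA was taken from whole liver tissue, so for every result fewer cells of a type and less RNA per cell cannot be told apart.

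A collagen molecule is a helix of 3 chains with a glycine at every 3rd residue, and it is made as a precursor whose ends are trimmed after secretion. Fibrillar collagens such as types I and III form the fibres that accumulate in liver fibrosis, type IV forms the sheet of basement membranes, and types VI, XII and XIV lie around or on the fibres. In the liver these chains are made mainly by stellate cells and portal fibroblasts, while hepatocytes make type XVIII. Types II, IX and XI are best known from cartilage. Copper enters this pathway through lysyl oxidases, copper enzymes that cross-link secreted collagen.

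For a few chains the probe sequence shows which part of the chain the array reads. In 3 fibrillar chains a 60-base probe lies in the code for the precursor end that starts trimer assembly, and these probes are shown because that region is conserved between chains. Capitals mark the stretch the aligned Col1a1 and Col3a1 probes share, GACATTGGTGNNCCNGANCANGAATT, or the one Col3a1 and Col2a1 share, CTNCCCATNNTNGANATNGCACCC, where N is any base. Searched on both strands, the first was found in 2 of 30367 probes (0.00659%) and the second in 2 (0.00659%). All were the probes the letters came from. The Col1a1 probe ends in the stop codon taa. Positions refer to rn4, as in the file headers.
Col1a1, chr10:83637956-83638015, plus strand: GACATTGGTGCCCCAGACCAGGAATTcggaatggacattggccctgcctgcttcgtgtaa
Col3a1, chr9:44317465-44317524, plus strand: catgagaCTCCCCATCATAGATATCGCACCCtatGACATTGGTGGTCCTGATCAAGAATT
Col2a1, chr7:136679416-136679475, minus strand: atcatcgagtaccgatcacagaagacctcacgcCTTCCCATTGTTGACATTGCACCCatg

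Probes of Col4a1 and Col14a1 lie in the helix itself, and are shown because the glycine repeat can be read from them. A glycine codon starts with GG, so the repeat appears as GG (capitals) at steps of 9 bases.
Col4a1, chr16:83146135-83146194, plus strand: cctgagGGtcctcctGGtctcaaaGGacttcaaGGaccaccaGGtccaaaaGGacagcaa
Col14a1, chr7:92028347-92028406, plus strand: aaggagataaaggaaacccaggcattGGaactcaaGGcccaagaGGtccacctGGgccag
The Col4a1 probe holds 6 such steps in a row and the Col14a1 probe 4. Of all 30367 probes, 85 (0.28%) held 4 or more on either strand, and of the 54 collagen probes only these 2 did. The Col1a1, Col3a1 and Col2a1 probes are the ones behind the levels given next. The printed Col4a1 and Col14a1 probes were second probes, since the brightest probe stood for each gene.

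Levels are log2 signal relative to the 75th percentile of the array, so a level of 0 is the signal of that percentile. They are compared between rats for 1 probe and never between probes. On the 24 arrays this percentile was 433 to 1284 in signal and the local background 38 to 48. Of all probes 59.9 to 73.4% were well above background, and 59.9 to 67.2% in control rats. All 16 hepatocyte markers were well above background in all 24 rats. Diets and slides overlapped only in part. The combined diet (6 rats) was on slide 1 with 2 high sucrose rats. The other 4 high sucrose rats shared slide 2 with 4 low copper rats, and the last 2 low copper rats shared slide 3 with the 6 control rats. The low copper difference within slide 3 is therefore given beside the low copper differences at 10% sucrose of the chains described in full, and no slide held both sucrose levels at 1 copper level.

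Of the 37 chains, 21 were well above background in all 24 rats by at least 1 probe. These were 9 of 11 fibrillar chains (Col1a1, Col1a2, Col2a1, Col3a1, Col5a1, Col5a2, Col5a3, Col11a2 and Col27a1), 3 of 7 basement membrane chains (Col4a1, Col4a2 and Col18a1) and 9 of 19 other chains (Col6a1, Col6a2, Col8a1, Col9a1, Col9a2, Col12a1, Col14a1, Col16a1 and Col19a1). In 5 chains no rat was above background, among them Col4a3 and Col4a4, the type IV chains best known from kidney filters. The others were Col11a1, Col6a6 and Col8a2. No collagen probe was saturated in any rat. The filter of at least 6 rats let 26 chains into the tests. A chain that passed the filter mainly through the diets where it was high was favoured to differ. This bears on Col6a3, Col17a1, Col20a1 and Col22a1.

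Among the 16 chains that were not above background in every rat, the control diet had the fewest detections. Leaving out Col4a5, seen in 22 rats, the detections summed over the other 15 chains came to 3 in control rats, 19 on the low copper diet, 15 on the high sucrose diet and 8 on the combined diet. Of all probes, 59.9 to 67.2% were well above background in the control rats and 64.8 to 71.0% on the low copper diet. It was 61.4 to 73.4% on the high sucrose diet and 62.7 to 67.1% on the combined diet. Col15a1, a collagen of the zone beside basement membranes, was above background in 0 control rats, 2 on the low copper diet, 2 on the high sucrose diet and 1 on the combined diet, and was not tested. Col7a1 of skin anchoring fibrils and Col10a1 of growth plate cartilage were seen in 1 and 5 rats. Col13a1, Col23a1 and Col24a1 were seen in 2, 2 and 3 rats. All control rats were on slide 3, so slide and diet cannot be told apart in these counts.

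**Figure D1:**
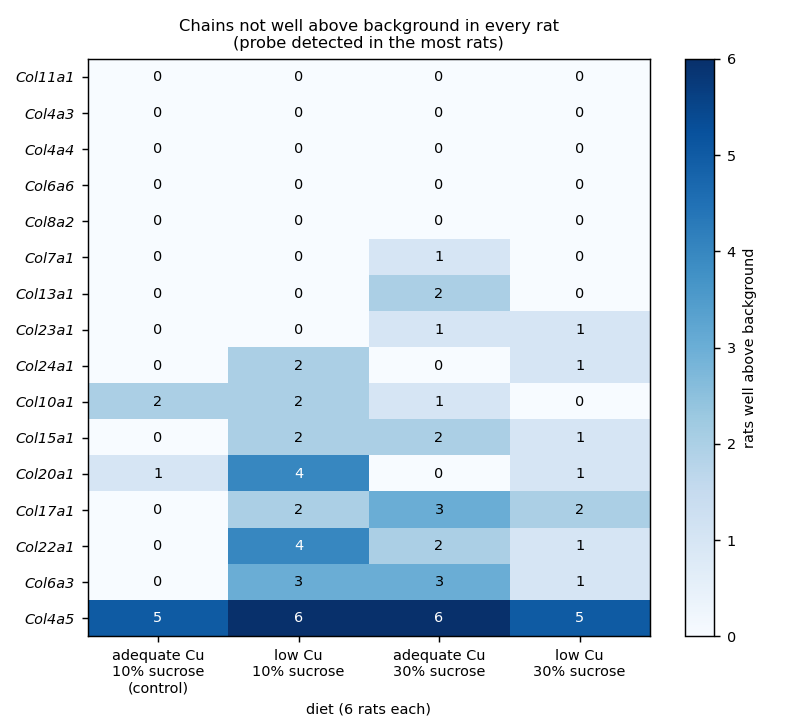
Number of rats (of 6 in each diet) in which the most often detected probe of a chain was well above background, for the 16 chains not detected in all 24 rats. Rows are chains, columns diets and shading the number of rats, from 0 for Col11a1 in every diet to 6 for Col4a5 in a pair of diets.

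The first question was how low copper changed the chains at 10% sucrose. Of the 26 tested chains, 7 rose and 0 fell on low copper (limma, Benjamini-Hochberg adjusted p under 0.05 over 18641 genes). That is 26.9% of the tested chains, where 18% of all genes tested rose and 0.595% fell. The 7 were Col2a1, Col11a2 and Col5a3 of the fibrillar class and Col9a1, Col9a2, Col19a1 and Col6a3 of the other class. The median difference was 0.11 over the 26 chains and 0.05 over all genes. Col1a1, Col1a2, Col3a1, Col5a1 and Col5a2, the chains of the main liver fibres, did not pass, and neither did any of 4 basement membrane chains.

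The second question was how 30% sucrose changed the chains at adequate copper. On 30% sucrose 9 of 26 chains rose (34.6%) and 0 fell, where 18.4% of all genes tested rose and 2.48% fell. They were Col2a1, Col11a2, Col5a3 and Col1a1 among the fibrillar chains and Col9a1, Col9a2, Col19a1, Col6a3 and Col17a1 among the others. The median difference was 0.35 over the 26 chains and 0.07 over all genes. The same 6 control rats served in both comparisons, so the lists share them and are given side by side only. Every treated rat lay above every control rat in 4 of 26 chains for low copper (Col11a2, Col5a3, Col19a1 and Col6a3), where 5.12% of all genes tested did so. For sucrose it was 4 of 26 chains (Col11a2, Col2a1, Col5a3 and Col19a1), where 11.9% of all genes did. Col6a3, and Col17a1 in the sucrose list, were above background in 0 control rats. They passed the filter only through the other diets, which favoured a rise, so they add no support to these counts.

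**Figure D2:**
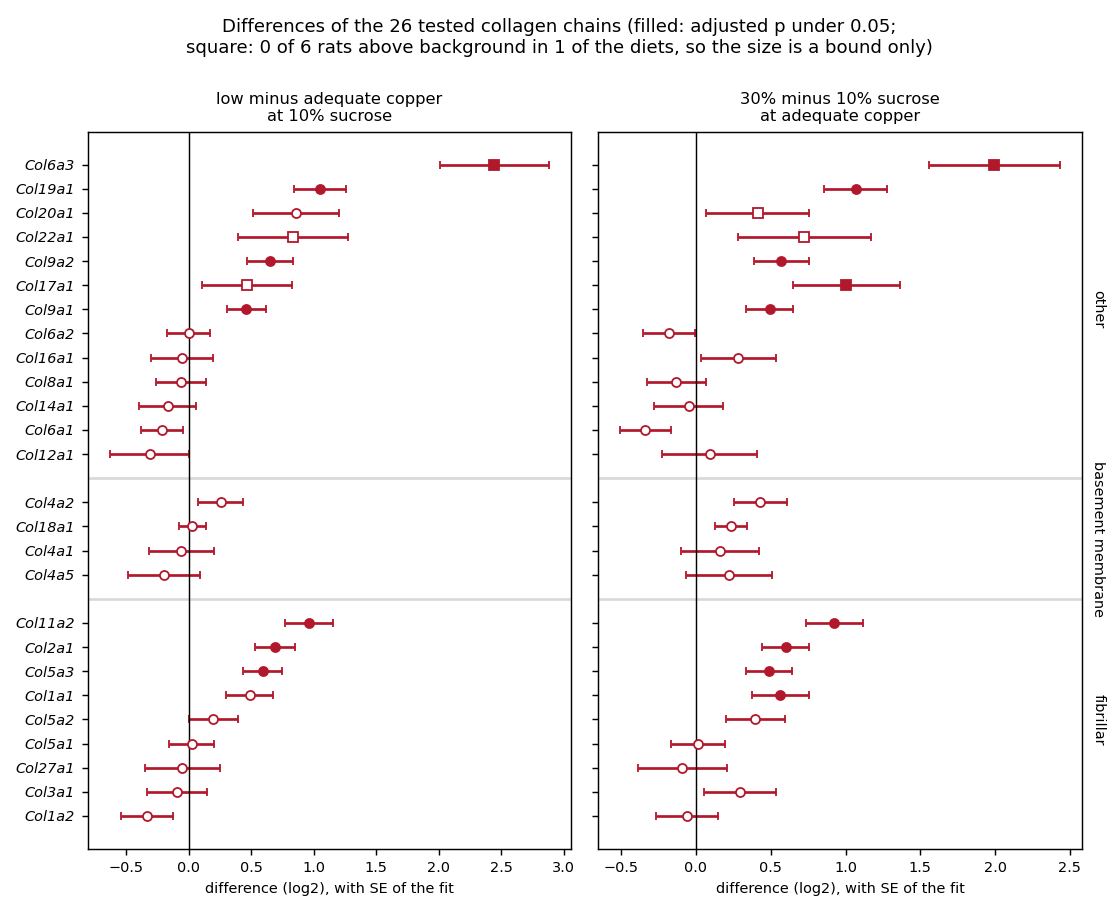
Differences (log2) of the 26 tested chains with the standard error of the fit, for low copper at 10% sucrose (left) and for 30% sucrose at adequate copper (right), in 3 class blocks. Filled symbols passed the threshold, and squares mark chains with 0 of 6 rats above background in 1 of the diets; filled symbols lie to the right of 0 in both panels, 7 on the left and 9 on the right, with 0 in the basement membrane block.

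Among the fibrillar chains the smallest adjusted p in both comparisons belonged to Col11a2, a chain of type XI collagen, which sits in the core of cartilage fibrils. Col11a2 lay at -4.54 to -4.00 (median -4.32) in the control rats, -3.82 to -2.79 (median -3.26) on the low copper diet, -3.83 to -2.72 (median -3.40) on the high sucrose diet and -4.24 to -3.38 (median -3.78) on the combined diet. Every rat on the low copper diet, and every rat on the high sucrose diet, lay above every control rat. Col11a2 rose by 0.96 (SE 0.19, adjusted p = 0.00173) with low copper, 1.95-fold, and by 0.59 within slide 3. It rose by 0.92 (SE 0.19, adjusted p = 0.00233) with high sucrose. A second Col11a2 probe, above background in 15 rats but only 1 of 6 control rats, so that its sizes against them are uncertain, passed with 0.99 (SE 0.19, adjusted p = 0.00149) for low copper and 1.20 (SE 0.19, adjusted p = 0.000722) for sucrose.

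Col2a1 codes for type II collagen, the main fibre of cartilage. Col2a1 lay at -3.40 to -2.73 (median -3.13) in the control rats, -2.88 to -2.11 (median -2.27) on the low copper diet, -2.71 to -1.97 (median -2.56) on the high sucrose diet and -3.16 to -2.38 (median -2.63) on the combined diet. The control rats were the lowest group by the median, and 1 low copper rat overlapped with them. Col2a1 rose by 0.69 (SE 0.16, adjusted p = 0.0037) with low copper, 0.49 within slide 3, and by 0.60 (SE 0.16, adjusted p = 0.00929) with high sucrose.

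Col5a3 is the least common chain of type V collagen, which sets fibre width. Col5a3 lay at -2.09 to -1.77 (median -1.84) in the control rats, -1.59 to -0.92 (median -1.29) on the low copper diet, -1.72 to -0.92 (median -1.41) on the high sucrose diet and -2.16 to -1.27 (median -1.58) on the combined diet. Neither the low copper rats nor the rats on the high sucrose diet overlapped with the control rats. The rises were 0.59 (SE 0.15, adjusted p = 0.00846), or 0.42 within slide 3, and 0.49 (SE 0.15, adjusted p = 0.026). The partner chains of type V did not pass. Col5a1 differed by 0.03 (SE 0.18, adjusted p = 0.951) with low copper and 0.01 (SE 0.18, adjusted p = 0.969) with high sucrose, and Col5a2 by 0.20 (SE 0.20, adjusted p = 0.597) and 0.40 (SE 0.20, adjusted p = 0.167). Within slide 3 the low copper differences were -0.12 for Col5a1 and 0.04 for Col5a2.

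Type I collagen, the main fibre of scar tissue, is built from Col1a1 and Col1a2. Col1a1 lay at -1.47 to -0.50 (median -0.98) in the control rats, -1.04 to 0.11 (median -0.49) on the low copper diet, -0.79 to -0.10 (median -0.36) on the high sucrose diet and -1.42 to -0.33 (median -0.83) on the combined diet. All 4 groups overlapped. Col1a1 differed by 0.49 (SE 0.19, adjusted p = 0.0852) with low copper, 0.28 within slide 3, and rose by 0.57 (SE 0.19, adjusted p = 0.039), 1.48-fold, with high sucrose. That call was lost when any 1 of 8 of the 24 rats was left out. A second Col1a1 probe, above background in all 24 rats, differed by 0.21 (SE 0.38, adjusted p = 0.757) with high sucrose and -0.04 (SE 0.38, adjusted p = 0.966) with low copper, so the rise rests on 1 of 2 probes.

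Col1a2 lay at 0.84 to 2.30 (median 1.42) in the control rats, 0.50 to 1.69 (median 1.04) on the low copper diet, 1.01 to 1.70 (median 1.47) on the high sucrose diet and 1.05 to 1.73 (median 1.41) on the combined diet. The groups overlapped over most of their range. Its differences were -0.34 (SE 0.21, adjusted p = 0.322) with low copper and -0.06 (SE 0.21, adjusted p = 0.881) with high sucrose. Col3a1, the single chain of type III collagen, lay at 0.49 to 1.62 (median 0.98) in the control rats, 0.40 to 1.78 (median 0.87) on the low copper diet, 0.64 to 2.01 (median 1.24) on the high sucrose diet and 0.58 to 1.56 (median 1.20) on the combined diet. Here too the groups overlapped, and the differences were -0.09 (SE 0.24, adjusted p = 0.864) and 0.30 (SE 0.24, adjusted p = 0.421). Within slide 3 both chains were lower by the mean in the 2 low copper rats than in the 6 control rats, with differences of -0.72 for Col1a2 and -0.57 for Col3a1.

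**Figure D3:**
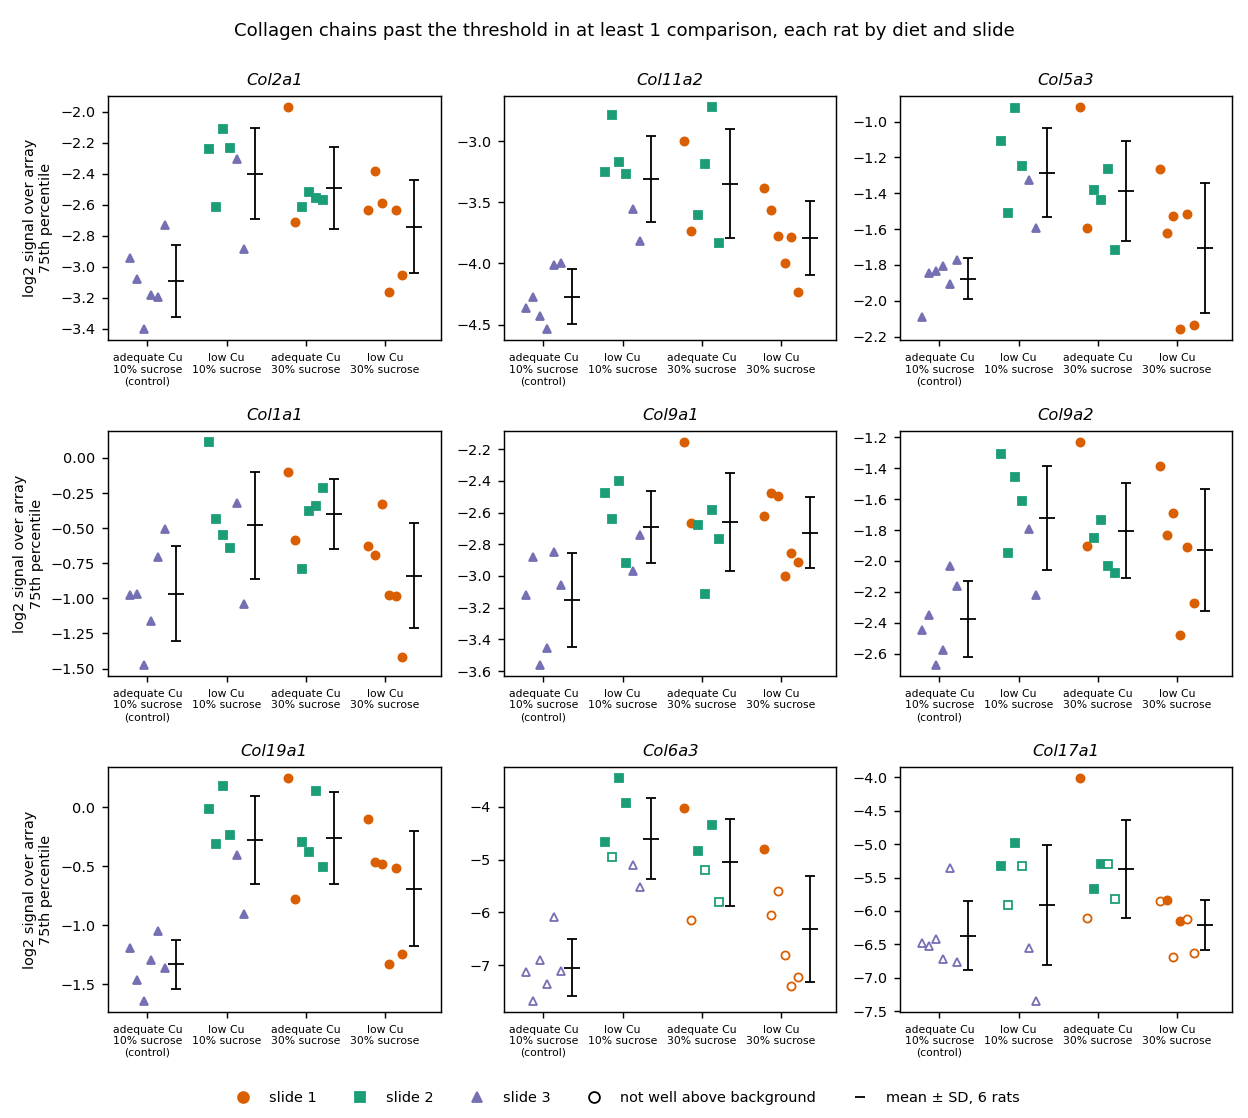
Level of each rat (log2 signal over the array's 75th percentile) by diet for the 9 chains that passed the threshold in at least 1 comparison, with the mean and SD of 6 rats. Marker shape and colour give the slide and open markers rats not well above background; control rats, all on slide 3, are the lowest group by the mean in each panel, and in Col6a3 and Col17a1 most markers are open.

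Among the other chains, type IX collagen lies on the surface of cartilage fibrils, and both of its tested chains rose. Col9a1 lay at -3.56 to -2.85 (median -3.09) in the control rats, -2.97 to -2.40 (median -2.69) on the low copper diet, -3.11 to -2.16 (median -2.67) on the high sucrose diet and -3.0 to -2.47 (median -2.74) on the combined diet. Col9a2 lay at -2.67 to -2.03 (median -2.40), -2.22 to -1.30 (median -1.70), -2.08 to -1.23 (median -1.87) and -2.48 to -1.38 (median -1.87) in the same order. For both chains the control rats were lowest by the median, with overlap. Col9a1 rose by 0.46 (SE 0.15, adjusted p = 0.0389) with low copper and 0.49 (SE 0.15, adjusted p = 0.0263) with high sucrose. Col9a2 rose by 0.65 (SE 0.18, adjusted p = 0.0141) and 0.57 (SE 0.18, adjusted p = 0.0304). Within slide 3 the low copper rats were higher by 0.30 for Col9a1 and 0.37 for Col9a2. A second Col9a1 probe, above background in 19 rats, rose by 0.88 (SE 0.22, adjusted p = 0.00615) with low copper and 1.01 (SE 0.22, adjusted p = 0.00291) with high sucrose, while its remaining probe was above background in 1 rat and was not tested.

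Col19a1 codes for type XIX collagen, a rare chain found near basement membranes and muscle, and neighbours Col9a1 on chromosome 9. Col19a1 lay at -1.64 to -1.05 (median -1.32) in the control rats, -0.90 to 0.18 (median -0.27) on the low copper diet, -0.78 to 0.25 (median -0.34) on the high sucrose diet and -1.33 to -0.10 (median -0.50) on the combined diet. Neither group compared with the control rats overlapped with them. Col19a1 rose by 1.05 (SE 0.21, adjusted p = 0.0018) with low copper, 2.07-fold, and 0.68 within slide 3. It rose by 1.07 (SE 0.21, adjusted p = 0.00178) with high sucrose, 2.1-fold.

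Type VI collagen forms beaded filaments from Col6a1, Col6a2 and Col6a3. Col6a3 was well above background in 0 of 6 control rats, 3 on the low copper diet, 3 on the high sucrose diet and 1 on the combined diet. Its difference therefore has no measured size. Against a floor for the control rats Col6a3 was 3.65-fold higher with low copper and 2.67-fold higher with high sucrose. The limma tests used the signals without that floor, so their adjusted p of 0.00101 and 0.00313 belong to larger differences. The floor is, in each control rat, the higher of its own signal and the lowest signal of any probe above background. It is not the detection limit of this probe, and rats below background also enter the mean of the bright diet. The true folds may therefore be smaller. The other Col6a3 probe was above background in 0 of 24 rats. Col6a1 and Col6a2 were above background in all 24 rats. Col6a1 lay at -0.91 to -0.19 (median -0.76) in the control rats, -1.49 to -0.67 (median -0.79) on the low copper diet, -1.61 to -0.53 (median -0.99) on the high sucrose diet and -1.20 to -0.68 (median -1.01) on the combined diet. The groups overlapped. The differences were -0.21 (SE 0.17, adjusted p = 0.471) and -0.34 (SE 0.17, adjusted p = 0.165) for Col6a1, and 0.00 (SE 0.17, adjusted p = 1) and -0.18 (SE 0.17, adjusted p = 0.507) for Col6a2. Within slide 3 the low copper differences were -0.52 for Col6a1 and -0.30 for Col6a2.

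Col17a1, a collagen that spans the membrane of epithelial cells, was above background in 0 control rats, 2 on the low copper diet, 3 on the high sucrose diet and 2 on the combined diet. With sucrose it was 1.83-fold higher against the same kind of floor. Without the floor it passed in limma (adjusted p = 0.0494). That call was lost when any 1 of 18 of the 24 rats was left out. The other Col17a1 probe was above background in 0 of 24 rats. Col20a1, a rare fibre-surface chain, was above background in 4 rats on the low copper diet and 1 control rat, and differed by 0.86 (SE 0.34, adjusted p = 0.0916). Col22a1, found at tissue junctions, was above background in 4 rats on the low copper diet and 0 control rats. Against the same kind of floor it was 1.55-fold higher with low copper, and without the floor it did not pass (limma, adjusted p = 0.229). Col14a1, which lies on type I fibres, did not pass. Col14a1 lay at 0.13 to 1.10 (median 0.80) in the control rats, -0.06 to 1.36 (median 0.52) on the low copper diet, -0.07 to 1.19 (median 0.65) on the high sucrose diet and -0.06 to 0.82 (median 0.56) on the combined diet, with wide overlap. Its differences were -0.17 (SE 0.23, adjusted p = 0.715) and -0.05 (SE 0.23, adjusted p = 0.913), and -0.68 for low copper within slide 3.

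Col12a1, a fibre-surface chain related to Col14a1, had probes on both sides of the threshold. Its brightest probe differed by -0.31 (SE 0.32, adjusted p = 0.603) with low copper, -0.83 within slide 3, and 0.09 (SE 0.32, adjusted p = 0.876) with high sucrose. A second probe, also above background in all 24 rats, rose by 0.59 (SE 0.18, adjusted p = 0.0248) and 0.66 (SE 0.18, adjusted p = 0.0121). For 7 chains with more than 1 probe past the filter, all probes of a chain had 1 sign in 3 chains for low copper and 6 for sucrose. The differences of Col16a1, Col8a1 and Col27a1 were all between -0.13 and 0.28 in these comparisons.

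None of 4 tested basement membrane chains passed in either comparison (limma); 0 of 4 had an unadjusted p under 0.05 with low copper and 2 of 4 did with high sucrose. Col4a1 and Col4a2 form the common trimer of type IV collagen. Col4a1 lay at -0.91 to -0.34 (median -0.50) in the control rats, -1.17 to 0.62 (median -0.86) on the low copper diet, -1.25 to 0.01 (median -0.18) on the high sucrose diet and -1.21 to -0.24 (median -0.72) on the combined diet. Col4a2 lay at -3.87 to -3.12 (median -3.53), -4.01 to -2.93 (median -3.19), -3.36 to -2.83 (median -3.11) and -3.90 to -3.23 (median -3.31). Both chains overlapped across all diets. Col4a1 differed by -0.06 (SE 0.26, adjusted p = 0.922) with low copper and 0.16 (SE 0.26, adjusted p = 0.719) with high sucrose, and Col4a2 by 0.25 (SE 0.18, adjusted p = 0.396) and 0.43 (SE 0.18, adjusted p = 0.09). Within slide 3 the low copper differences were -0.41 for Col4a1 and -0.13 for Col4a2.

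Col18a1, the hepatocyte collagen whose end is released as endostatin, varied least of all tested chains, with a within-diet SD of 0.17. Col18a1 lay at 3.90 to 4.31 (median 4.03) in the control rats, 3.92 to 4.33 (median 4.10) on the low copper diet, 4.09 to 4.52 (median 4.33) on the high sucrose diet and 3.82 to 4.19 (median 4.07) on the combined diet. The groups overlapped, and the differences were 0.03 (SE 0.11, adjusted p = 0.905), or 0.04 within slide 3, and 0.24 (SE 0.11, adjusted p = 0.123). Col4a5, an X-linked type IV chain, differed by -0.20 (SE 0.29, adjusted p = 0.739) and 0.22 (SE 0.29, adjusted p = 0.642).

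**Figure D4:**
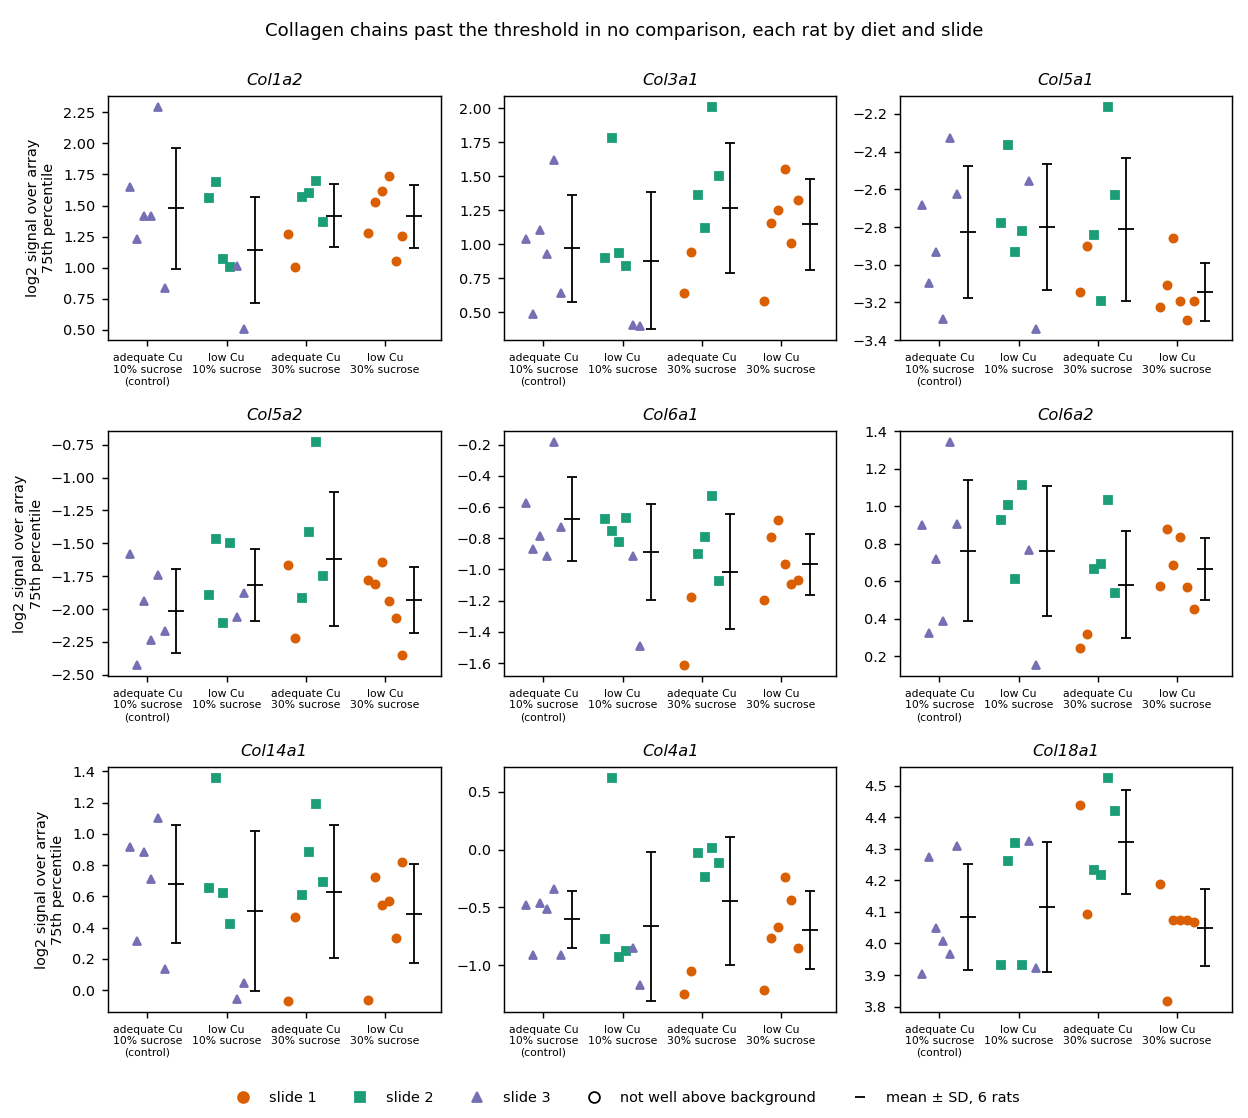
Level of each rat (log2 signal over the array's 75th percentile) by diet for 9 chains that passed in no comparison, with the mean and SD of 6 rats. The diets overlap in every panel; Col18a1 has the narrowest spread within a diet.

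The third question was whether the copper difference depended on sucrose. The interaction (the copper difference at 30% sucrose minus that at 10% sucrose) was below 0 past the threshold in 7 of 26 chains and above it in 0, where 18.9% of all genes tested were below and 1.94% above. The 7 were Col6a3, Col11a2, Col19a1, Col2a1, Col5a3, Col1a1 and Col9a2. The interaction was -1.41 (SE 0.27, adjusted p = 0.00203) for Col11a2, -1.48 (SE 0.30, adjusted p = 0.00243) for Col19a1, -0.94 (SE 0.22, adjusted p = 0.00563) for Col2a1 and -0.91 (SE 0.22, adjusted p = 0.00592) for Col5a3. For Col1a1 it was -0.92 (SE 0.27, adjusted p = 0.0181), for Col9a2 -0.78 (SE 0.26, adjusted p = 0.0367), and for Col6a3, which was below background in all control rats, the adjusted p was 0.000954. Col6a3 passed the filter only through the other diets, which favoured an interaction below 0, so it adds no support to this count. In the 7 chains both single changes of diet stood above the control diet and the combined diet lay between them and the control diet by the mean. The second Col1a1 probe, above background in all 24 rats, had an interaction of 0.01 (SE 0.54, adjusted p = 0.99). Second probes passed for Col11a2 with -1.55 (SE 0.27, adjusted p = 0.00135), Col9a1 with -1.21 (SE 0.31, adjusted p = 0.00826) and Col12a1 with -0.80 (SE 0.26, adjusted p = 0.0288). Those of Col14a1, Col4a1 and Col5a2 did not pass, nor did the brightest probes of Col9a1 and Col12a1. The same rats enter this contrast and the 2 comparisons before it. Among the chains that did not pass, Col1a2 had an interaction of 0.33 (SE 0.29, adjusted p = 0.467), Col3a1 of -0.03 (SE 0.34, adjusted p = 0.967), Col5a1 of -0.36 (SE 0.25, adjusted p = 0.343) and Col5a2 of -0.51 (SE 0.28, adjusted p = 0.21). It was -0.19 (SE 0.37, adjusted p = 0.759) for Col4a1, -0.64 (SE 0.25, adjusted p = 0.0735) for Col4a2 and -0.30 (SE 0.15, adjusted p = 0.165) for Col18a1, and 0.26 (SE 0.24, adjusted p = 0.476) for Col6a1 and 0.03 (SE 0.32, adjusted p = 0.965) for Col14a1.

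In the remaining comparisons 0 of 26 chains passed (limma). The shares of all genes given for them are at the adjusted threshold, unlike the chain counts at an unadjusted p under 0.05. Those counts are therefore not read as a result about the chains. Low copper at 30% sucrose gave 6 chains with an unadjusted p under 0.05, and 0% of all genes tested passed. The chains with the smallest p were Col6a3 (adjusted p = 0.463), Col18a1 with -0.27 (SE 0.11, adjusted p = 0.473) and Col17a1 with -0.84 (SE 0.36, adjusted p = 0.482). There 22 of 26 chains were below 0, with a median of -0.26 against -0.04 over all genes. The share of all genes below 0 over all slides is not given here. On slide 1 alone, 6 against 2 rats, 16 of 26 chains were below 0 by the mean (61.5%, against 62.1% of all genes). The slide 1 median was -0.19 for the chains and -0.09 over all genes. For 30% sucrose at low copper 4 chains had an unadjusted p under 0.05 and 0% of all genes passed. The smallest p belonged to Col6a3 (adjusted p = 0.415), Col5a3 with -0.42 (SE 0.15, adjusted p = 0.461) and Col11a2 with -0.48 (SE 0.19, adjusted p = 0.482).

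The combined diet was set against the control diet, where 1.76% of all genes passed. 5 of 26 chains had an unadjusted p under 0.05, led by Col19a1 with 0.64 (SE 0.21, adjusted p = 0.0991), Col9a1 with 0.43 (SE 0.15, adjusted p = 0.138) and Col11a2 with 0.48 (SE 0.19, adjusted p = 0.181). Col1a1 differed by 0.13 (SE 0.19), Col1a2 by -0.06 (SE 0.21), Col3a1 by 0.18 (SE 0.24) and Col5a1 by -0.32 (SE 0.18). Averaged over sucrose, the copper difference had 1 chain with an unadjusted p under 0.05, Col19a1 at 0.31 (SE 0.15, adjusted p = 0.565), and 0% of all genes passed. Next in order were Col9a2 at 0.26 (SE 0.13, adjusted p = 0.578) and Col2a1 at 0.22 (SE 0.11, adjusted p = 0.6). Averaged over copper, the sucrose difference had 2, Col19a1 at 0.33 (SE 0.15, adjusted p = 0.439) and Col9a1 at 0.23 (SE 0.11, adjusted p = 0.458), followed by Col6a1 at -0.21 (SE 0.12, adjusted p = 0.54), again with 0% of all genes. In the mean differences Col1a1, Col1a2, Col3a1, Col5a1, Col5a2, Col4a1, Col4a2, Col6a1, Col14a1 and Col18a1 all lay between -0.21 and 0.28.

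Slide moved with diet, and the chains differed between slides within a diet. The 4 rats on the low copper diet that were on slide 2 were higher by the mean than the 2 of that diet on slide 3 in 25 of 26 chains (96.2%), with a median difference of 0.50. Over all genes tested it was 56.7%, with a median of 0.05. On slide 3 alone, low copper lay above control by the mean in 11 of 26 chains (42.3%), with a median of -0.13, against 57% and 0.04 over all genes. The rats on slide 3 are part of the fit that called the chains, so the slide 3 values of called chains are no separate support. Fitted within slide 3, 2 against 6 rats, 0 of 26 chains passed (limma) and 0% of all genes did. There 9 chains had an unadjusted p under 0.05, a count without a matched share of all genes beside it. Of these Col6a3, Col19a1, Col11a2, Col5a3 and Col2a1 lay above control, and Col14a1, Col16a1, Col12a1 and Col6a1 below it.

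With slide as a fixed block 0 of 26 chains passed for low copper at 10% sucrose, for sucrose at adequate copper and for the interaction. Unadjusted p under 0.05 held for 8, 1 and 12 of 26 chains there. At the adjusted threshold 0%, 0% and 0.0536% of all genes tested passed. These shares are at another threshold than the counts of 8, 1 and 12 and cannot be set against them. The counts are therefore not read as a result about the chains. The blocked interaction comes to the copper difference on slide 1 minus that on slide 3. It was -1.11 (SE 0.41) for Col19a1, -1.01 (SE 0.36) for Col11a2, -0.90 (SE 0.31) for Col2a1 and -0.87 (SE 0.31) for Col5a3. For Col1a1 it was -0.78 (SE 0.39) and for Col9a2 -0.73 (SE 0.35). All 6 kept their sign, and their standard errors were larger than without the block. The blocked low copper differences are those within slide 3. The blocked sucrose differences rest on a chain of slides, since no slide held both sucrose levels at 1 copper level. They were 0.23 for Col2a1, 0.37 for Col11a2, 0.17 for Col5a3, 0.23 for Col1a1, 0.12 for Col9a1, 0.02 for Col9a2, 0.51 for Col19a1 and -0.71 for Col17a1. With slide as a random block 6, 3 and 5 of 26 chains passed in those comparisons, the first 2 counts above 0 and the last below it, where 12.2%, 6.35% and 9.49% of all genes did in the same directions. By the mean, on slide 1 the 6 rats on the combined diet lay below the 2 on the high sucrose diet in 16 of 26 chains (61.5%, against 62.1% of all genes). On slide 2 the 4 rats on the high sucrose diet lay below the 4 on the low copper diet, again by the mean, in 16 of 26 (61.5%, against 66.2%).

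The base composition of the probes also moved with the differences. Across the 18641 genes tested, the GC content of the probe and the low copper difference at 10% sucrose had a Spearman correlation of 0.35, and across the 26 chains, which share the arrays, of 0.39. The 7 chains called there had a median probe GC of 50% and the other 19 of 45%. For sucrose at adequate copper the correlations were 0.29 and 0.27. The part of slide and of base composition in the rises was not tested.

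**Figure D5:**
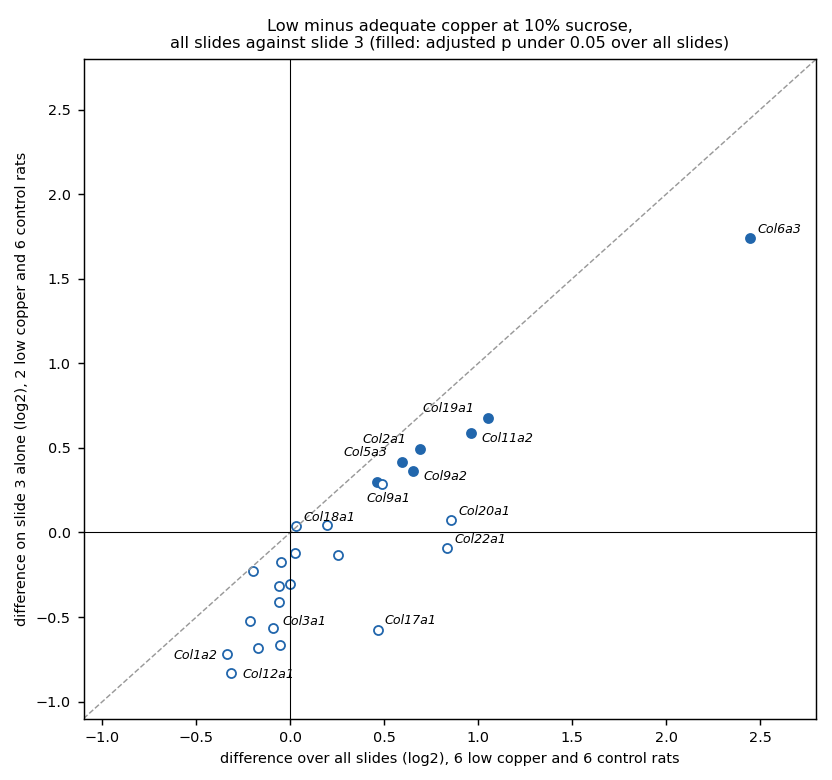
Low minus adequate copper at 10% sucrose for the 26 tested chains: difference over all slides (6 against 6 rats) on the horizontal axis and on slide 3 alone (2 against 6 rats) on the vertical axis, both log2, with the dashed line at equal values. The 7 filled chains, which passed over all slides with these rats in the fit, lie above 0 on slide 3, while Col1a2, Col3a1 and Col17a1 lie below 0 there.

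Chains that share a trimer were compared rat by rat after subtracting the mean of each diet, in 5 pairs over 24 rats. The permutations shuffled rats within a diet across slides, so a shift shared by the rats of a slide can enter r and its p. With the mean of each diet on each slide subtracted, r was 0.83 for Col6a1 and Col6a2 and 0.56 for Col9a1 and Col9a2. It was 0.47 for Col5a1 and Col5a2, 0.28 for Col1a1 and Col1a2, and 0.03 for Col4a1 and Col4a2. Col6a1 and Col6a2 followed each other closely, with Pearson r = 0.88 (permutation p = 1e-05, the smallest the permutations can give, adjusted over 5 pairs 5e-05) and Spearman rho = 0.86 (permutation p = 1e-05, adjusted 5e-05). Without the 2 rats farthest from the median r was 0.85, and within slides 1, 2 and 3 it was 0.77, 0.83 and 0.95. Col9a1 and Col9a2 had r = 0.63 (permutation p = 0.00188, adjusted 0.0047) and rho = 0.65 (permutation p = 0.0016, adjusted 0.004). Their r was 0.64 without the 2 farthest rats and 0.84, 0.26 and 0.66 within the slides.

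Col5a1 and Col5a2 had r = 0.53 (permutation p = 0.0229, adjusted 0.0382) and rho = 0.44 (permutation p = 0.0536, adjusted 0.0893). Their r fell to 0.30 without the 2 farthest rats, so its size depends in part on them. Within the slides r was 0.40, 0.63 and 0.46. The pair of type I collagen, Col1a1 and Col1a2, had r = 0.31 (permutation p = 0.189, adjusted 0.237) and rho = 0.35 (permutation p = 0.127, adjusted 0.158). Within the slides r was 0.37, 0.42 and 0.22, and it was 0.22 without the 2 farthest rats.

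Col4a1 and Col4a2 start head to head, with start sites 77 bases apart on chromosome 16 in RefSeq (GRCr8). Their r was 0.17 (permutation p = 0.448, adjusted 0.448) and rho 0.06 (permutation p = 0.764, adjusted 0.764). Their r was 0.14 without the 2 farthest rats, and -0.29, 0.29 and 0.38 within the slides. Across the 26 chains the median within-diet SD was 0.36, against 0.32 over all genes tested. The widest were Col22a1 at 0.81 and Col6a3 at 0.80, which were above background in 7 rats each.

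The other genes of collagen metabolism were read from lists, whose counts stand beside the 18% of all genes tested that rose with low copper and the 18.4% that rose with sucrose. In either comparison 0 members of these lists or of the cell marker lists passed with slide as a fixed block (limma). Of 23 tested genes that fold, modify, trim or cross-link collagen, 0 rose with low copper and 0 fell, with 0 at an unadjusted p under 0.05 (limma). With sucrose at adequate copper 0 rose and 1 fell. The 1 was Lox, the copper-dependent lysyl oxidase, which fell by 2.22 (SE 0.80, adjusted p = 0.0496), a call lost when any 1 of 19 of the 24 rats was left out. Lox lay at -5.86 to -2.15 in the control rats, -7.30 to -1.78 on the low copper diet, -6.66 to -3.82 on the high sucrose diet and -4.75 to -2.67 on the combined diet, and was above background in 5, 4, 3 and 6 of 6 rats, so the size of its fall is uncertain. Every group overlapped with the control rats. Its low copper difference at 10% sucrose was -1.33 (SE 0.80, adjusted p = 0.305). The related Loxl1 differed by 0.03 (SE 0.39, adjusted p = 0.974) with low copper, Loxl2 by -0.16 (SE 0.26, adjusted p = 0.778) and Loxl4 by 0.04 (SE 0.23, adjusted p = 0.946). With sucrose they differed by 0.08 (SE 0.39, adjusted p = 0.917), 0.05 (SE 0.26, adjusted p = 0.929) and -0.19 (SE 0.23, adjusted p = 0.615).

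Of 14 tested genes of collagen breakdown and its inhibitors, 1 rose and 0 fell in either comparison. It was Timp4, an inhibitor of matrix proteases, with 1.58 (SE 0.27, adjusted p = 0.000898) for low copper and 1.49 (SE 0.27, adjusted p = 0.00115) for sucrose. Timp4 was above background in 1 of 6 control rats, so these sizes are uncertain, and it passed the filter through the other diets. Of 7 tested collagen receptors 3 rose and 0 fell in each comparison. Cd44, a receptor of hyaluronan and collagen, rose by 1.14 (SE 0.16, adjusted p = 0.000542) and 1.14 (SE 0.16, adjusted p = 0.000386). The integrin chains Itga10 and Itga11, which bind collagen in cartilage and in fibroblasts, rose by 1.06 (SE 0.30, adjusted p = 0.0158) and 0.81 (SE 0.21, adjusted p = 0.00786) with low copper, and by 1.03 (SE 0.30, adjusted p = 0.0186) and 0.68 (SE 0.21, adjusted p = 0.0242) with high sucrose. Itga10 was not well above background in every rat, so its sizes are less certain. With slide as a fixed block the Itga10 differences turned to -0.10 and -0.87. Of 11 basement membrane partners 2 rose and 0 fell in each comparison. Among those that rose was the laminin chain Lama1, which was above background in 0 control rats, 4 on the low copper diet and 6 on the high sucrose diet, and so passed the filter only through the other diets. Of 18 other matrix genes 2 rose and 0 fell in each comparison. These were the fibrillin gene Fbn2, with 0.63 (SE 0.13, adjusted p = 0.00206) and 0.78 (SE 0.13, adjusted p = 0.000877), and the microfibril gene Mfap4, with 0.64 (SE 0.18, adjusted p = 0.0137) and 0.71 (SE 0.18, adjusted p = 0.00791).

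Markers of the cells that make collagen were measured on the same arrays. Of 18 stellate cell markers 3 rose and 0 fell in each comparison, namely Acta2, Nes and Gfap. Of the 18, 11 were below 0 with low copper (median -0.11) and 9 with sucrose (median -0.04). Acta2, the smooth muscle actin of activated stellate cells, lay at -2.42 to -2.11 in the control rats, -2.27 to -1.29 on the low copper diet and -2.09 to -1.24 on the high sucrose diet. The rats on the high sucrose diet did not overlap with the control rats, and those on the low copper diet did. Acta2 rose by 0.75 (SE 0.17, adjusted p = 0.00316) and 0.71 (SE 0.17, adjusted p = 0.00481). Nes, a filament gene of stellate cells, rose by 1.25 (SE 0.26, adjusted p = 0.00226) and 1.26 (SE 0.26, adjusted p = 0.00233), and Gfap, another, by 1.13 (SE 0.26, adjusted p = 0.0035) and 1.0 (SE 0.26, adjusted p = 0.00816). Gfap was not well above background in every rat, so its sizes are less certain. With slide as a fixed block the sucrose differences of Nes and Gfap turned to -0.31 and -0.31. The level summed over the 18 markers ran from 4.15 to 4.71 in control rats, 3.42 to 4.62 on the low copper diet, 3.87 to 4.59 on the high sucrose diet and 3.64 to 4.35 on the combined diet, with overlap. 16 of the 19 stellate markers on the array were above background in all 24 rats and 0 in no rat.

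Of 7 portal fibroblast markers 4 rose with low copper and 3 with high sucrose, and 0 fell. The list's median was 0.75 and 0.71, and with slide as a fixed block 0.32 and 0.01. Fbln2 rose by 0.75 (SE 0.17, adjusted p = 0.00329) and 0.78 (SE 0.17, adjusted p = 0.0028), and Pi16 by 0.80 (SE 0.21, adjusted p = 0.00884) and 0.81 (SE 0.21, adjusted p = 0.00846). Mfap4, given above with the other matrix genes, is also on this list. The level summed over the 7 markers ran from 3.88 to 4.44 (median 4.29) in control rats and 3.27 to 4.25 (median 4.03) on the low copper diet. It ran from 3.12 to 4.72 (median 3.84) on the high sucrose diet and 3.86 to 4.54 (median 4.33) on the combined diet. By its median the summed level was thus lower on the low copper and high sucrose diets than in control rats, unlike the list's median difference. Of 15 endothelial markers 1 rose and 1 fell in each comparison, Cdh5 by 0.78 (SE 0.17, adjusted p = 0.00241) and 0.85 (SE 0.17, adjusted p = 0.0016) and Ehd3 by -0.63 (SE 0.18, adjusted p = 0.0155) and -0.52 (SE 0.18, adjusted p = 0.0428). The sucrose call of Ehd3 was lost when any 1 of 9 of the 24 rats was left out. Of 16 hepatocyte markers 0 rose and 0 fell in either comparison, with 0 and 3 at an unadjusted p under 0.05. Of 7 neutrophil markers 2 rose with low copper and 5 with high sucrose, and of 12 T, B and NK cell markers 6 rose in each, to be read beside 18% and 18.4% of all genes. Of 12 macrophage markers 1 rose in each, of 10 bile duct markers 1, and of 4 pancreas acinar markers 3. Of 8 red blood cell genes 1 rose with low copper and 3 with high sucrose, and of 3 mesothelial markers 0 in each. The 1 tested fat cell marker passed in neither direction with low copper and fell with high sucrose. The part of these cells in the collagen differences was not tested.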

How the data were processed

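Liver RNA of 24 rats was measured on one-colour Agilent arrays, 1 array for each rat and 8 on each of 3 slides. The deposited intensities were read with Feature Extraction 10.7.3.1, per the submitters' processing notes; per the file headers the processed signal had its background subtracted and a spatial trend removed, and weak spots carry surrogate values. Other deposited columns mark spots as well above background, saturated or outlying with 0 or 1, per the file headers. The authors' deposited series table holds scores whose values showed the same quantiles in every column, centred on 0 and scaled to an interquartile range of 1; how they were made is not given in the sources used here. That table served only as an alternative, after multiplying by 662 and adding 80.4, with values floored at 5.

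Of 62976 spots 4259 controls were dropped, outlier marks (0.652% of spots) were left out and spots of 1 probe were averaged. Levels are the log2 processed signal minus that of the array's 75th percentile. Probes well above background on at least 6 of 24 arrays were kept, the brightest stood for its gene, and 18641 genes were fitted across all 4 diets with limma 3.58.1 (R 4.3.3), with Benjamini-Hochberg adjustment in each of 8 comparisons at 0.05. Files were read with the data.table package, version 1.17.8, and figures drawn with matplotlib 3.10.9. The number of arrays limits the precision. Partner chains were compared with permutations within diets (100000). The fit was tested on simulated data.

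The genes named are those past the threshold in a comparison, or the 3 with the smallest p where none passed, a fixed set of liver chains, and up to 3 genes of each list with the smallest p, with the lysyl oxidases. Col6a2, the second probes and the chains named by their detection were added with their values in view. The members and lists were chosen with earlier results of these data known. Rat numbers are shared by the diets, but same-numbered rats did not deviate together (r from -0.29 to 0.36 over 36 pairs), so the fit has no replicate block. Alternatives covered background correction, normalization, filters, probe choice, slide, array weights, the diets fitted and left-out rats. No genome of the rn4 build was used here, so exons and UTRs are not given. One of the genes that rose and 1 probe sequence are not reported here.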

Additional observations from a re-analysis of the deposited data

Results flagged for a closer look

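In 7 chains the copper difference depended on sucrose, by limma's test of the interaction over all 4 diets. The interaction was -1.41 for Col11a2, -1.48 for Col19a1, -0.92 for Col1a1, -0.94 for Col2a1, -0.91 for Col5a3, -3.71 for Col6a3 and -0.78 for Col9a2. Col6a3 was below background in all control rats, so its value is no measured size. It passed the filter only through the other diets and adds no support to the count of 7. A second Col1a1 probe had an interaction of 0.01, so the Col1a1 value rests on 1 of 2 probes. None of the 7 passed with slide as a fixed block, and the interactions were -1.01 for Col11a2, -1.11 for Col19a1, -0.78 for Col1a1, -0.90 for Col2a1, -0.87 for Col5a3 and -0.73 for Col9a2, with larger standard errors. Without the block 18.9% of all genes tested had an interaction below 0 past the threshold.

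In 7 of 104 groups of 6 rats for 1 chain (6.73%) a single rat stood apart from its group by Dixon's criterion, and chance gives about 1 in 20. Col4a1 was at 0.62 in rat 2 on the low copper diet, where the next rat was at -0.78. In rat 6 of that diet Col4a2 was at -4.01 (next -3.27) and Col6a1 at -1.49 (next -0.91). Col2a1 was at -1.97 in rat 1 on the high sucrose diet (next -2.51). Col18a1 was at 3.82 in rat 2 on the combined diet (next 4.07). Among control rats Col17a1 was at -5.36 in rat 5 (next -6.42), where it was not well above background, and Col4a5 at -5.21 in rat 6 (next -4.06).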

How the results depend on the processing

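Of 295 values of called chains under alternatives other than leaving out 1 rat, 225 kept their direction and call, 69 lost the call and 1 reversed. For 30% sucrose at adequate copper the 9 calls became 3 under quantile normalization, 5 with the authors' table, 0 with slide as a fixed block, 3 with slide as a random block, and 5 without rat 5 on the high sucrose diet and rat 2 on the low copper diet, which earlier results showed to stand apart. For low copper at 10% sucrose the 7 calls became 0 with the fixed slide block and 0 on slide 3 alone, an alternative added after seeing the data. The 7 interactions became 0 with the fixed slide block. Array weights gave 1 call for the mean copper difference and 5 for the combined diet against the control diet. With rat number as a replicate block the counts were 7, 9 and 7 for low copper at 10% sucrose, sucrose at adequate copper and the interaction, as without it, and 0 in the other comparisons.

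With slide as a fixed block Col17a1 reversed to -0.71 for sucrose at adequate copper, as did Itga10 (-0.87), Lama1 (-0.057), Nes (-0.31) and Gfap (-0.31). Itga10 reversed for low copper at 10% sucrose (-0.10), also on slide 3 alone. The cause was not tested.

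Leaving out 1 rat at a time gave 6 to 10 calls for low copper at 10% sucrose, 6 to 10 for the interaction and 4 to 10 for sucrose at adequate copper. The count of 4 came without rat 1 on the high sucrose diet; it was 5 without rat 5 of that diet or without control rat 1, 3 or 4. The combined diet gave 0 to 1 calls against the control diet, 1 without its rat 4 or its rat 6. The other comparisons gave 0. Single rats ended the call of Col9a1 for low copper in 6 of 24 cases, and for sucrose those of Col5a3 in 3, Col9a1 in 4, Col9a2 in 5, Col1a1 in 8 and Col17a1 in 18. The interaction of Col9a2 was lost in 10. Signals near background limit Col6a3, Col17a1, Col20a1 and Col22a1.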
